A study of Mus musculus with 16 samples.

Results

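The genes described here make cholesterol and fatty acids. They were chosen by symbol as a list of 33 genes, and all 33 were found among the 49315 genes of the count table and among the 15993 genes tested. By role, 7 act in the mevalonate steps, 10 make squalene or lead from it to cholesterol, and 5 control the pathway. Of the others, 3 make fatty acids, 6 desaturate or elongate them, and 2 carry cholesterol or fatty acid (Stard4 and Cd36). The lowest count of any member in any library was 65, so no member was near the limit of detection.

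Cells build cholesterol from acetyl-CoA through mevalonate, farnesyl diphosphate, squalene and a chain of sterol intermediates, and they build fatty acids from the same acetyl-CoA through malonyl-CoA. The membrane-bound transcription factors SREBP-1 (encoded by Srebf1) and SREBP-2 (Srebf2) switch on both sets of enzymes. When sterols are low, SCAP escorts them out of the endoplasmic reticulum for cleavage, and when sterols are high the INSIG proteins hold the complex back. In the airway, epithelial cells use these lipids for membranes, and the pathway is best known there from alveolar cells that make surfactant.

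The study asked whether LMAN1, a cargo receptor of the secretory pathway, changes the response of male and female airways to house dust mite (HDM) extract. RNA was sequenced from primary mouse tracheal epithelial cells (MTECs) grown as cultures from male (M) or female (F) mice labelled wild type (WT) or LMAN1 knockout (KO). Cultures were untreated (naive) or received HDM at 20 ug/ml overnight. The 8 groups of sex, genotype and treatment held 2 biological replicates each, 16 libraries in all. KO mice were on a C57BL/6J background with WT littermates as controls, and the cultures were made from pooled tracheas, so a library is not 1 animal. Whether the replicates came from separate pools is not given in the sources used here, and p-values then measure only the spread between these libraries.

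Totals ranged from 21860698 to 43442188 counts per library. Levels are given as CPM, the count of a gene relative to the TMM-scaled total of its library, and where values are paired, replicate 1 comes first. Lman1, the targeted gene, went partly against the genotype labels. It lay between 101 and 144 CPM in the 8 WT libraries, at 12.8 in both F KO naive libraries and at 14.2 in M KO naive replicate 1. M KO naive replicate 2 (63.4 CPM), both M KO HDM libraries (65.0 and 66.0) and both F KO HDM libraries (66.6 and 78.0) lay in between. KO below therefore means the libraries labelled KO. In F KO, HDM and this difference in Lman1 between naive and HDM libraries cannot be told apart. The 5 epithelial markers summed to between 3249 and 9001 CPM in every library, and 5 of 5 were called higher with HDM in F WT. Of all tested genes, 20.6% were called higher there and 22.5% lower. Secretory markers, 7 of 7 called lower in F WT, summed to 3764 to 4654 CPM in the F WT HDM libraries against 13183 to 17436 in F WT naive. Basal markers, 5 of 6 called lower, summed to 1969 to 3975 against 9475 to 10344, and ciliated markers, 5 of 9 called lower, to 103 to 115 against 113 to 144. Fibroblast markers differed between replicates, at 29.3 and 577 CPM in F WT naive and 48.8 and 605 in F WT HDM, and 2 of 8 were called higher with HDM in F WT. These were Dcn (10.5-fold, adjusted p = 0.0315) and Lum (24.3-fold, adjusted p = 0.0114, edgeR's quasi-likelihood test). Squamous markers, 1 called higher and 2 lower of 7 tested, summed to 475 to 681 CPM in F WT HDM against 1414 to 1647 in naive, and smooth muscle markers, none called, to 284 to 463 against 60.2 to 146. In such bulk cultures, fewer cells of a type and less RNA per cell cannot be told apart, and the part of these shifts in the results below was not tested.

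In naive cultures Scd2, Elovl5 and Scd1, which desaturate or elongate fatty acids, had the highest levels of the 33 genes, while Elovl6 of the same role was low, at 5.61 CPM per kb. Expressed as CPM per kb of exon, which allows genes of different length to be compared, Scd2 had the highest level over the 8 naive libraries, at 286 ± 108 (SD, n = 8). Scd2 and Scd1 encode stearoyl-CoA desaturases, which introduce the double bond of oleic and palmitoleic acid. Elovl5, an elongase of polyunsaturated fatty acids, followed at 95.7 ± 10.3, Scd1 at 86.2 ± 14.4 and Srebf1 at 81.8 ± 27.7 (SD, n = 8), and these 3 did not differ from each other beyond their spread. At the other end were Hsd17b7 at 3.27 ± 0.481, the sterol reductase Tm7sf2 at 3.52 ± 0.342, Acaca at 3.89 ± 0.816 and Lss, which closes the sterol ring, at 4.06 ± 0.908. Exon length here is the union of all annotated exons, which lowers the value of a gene with many alternative exons such as Acaca.

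**Figure D1:**
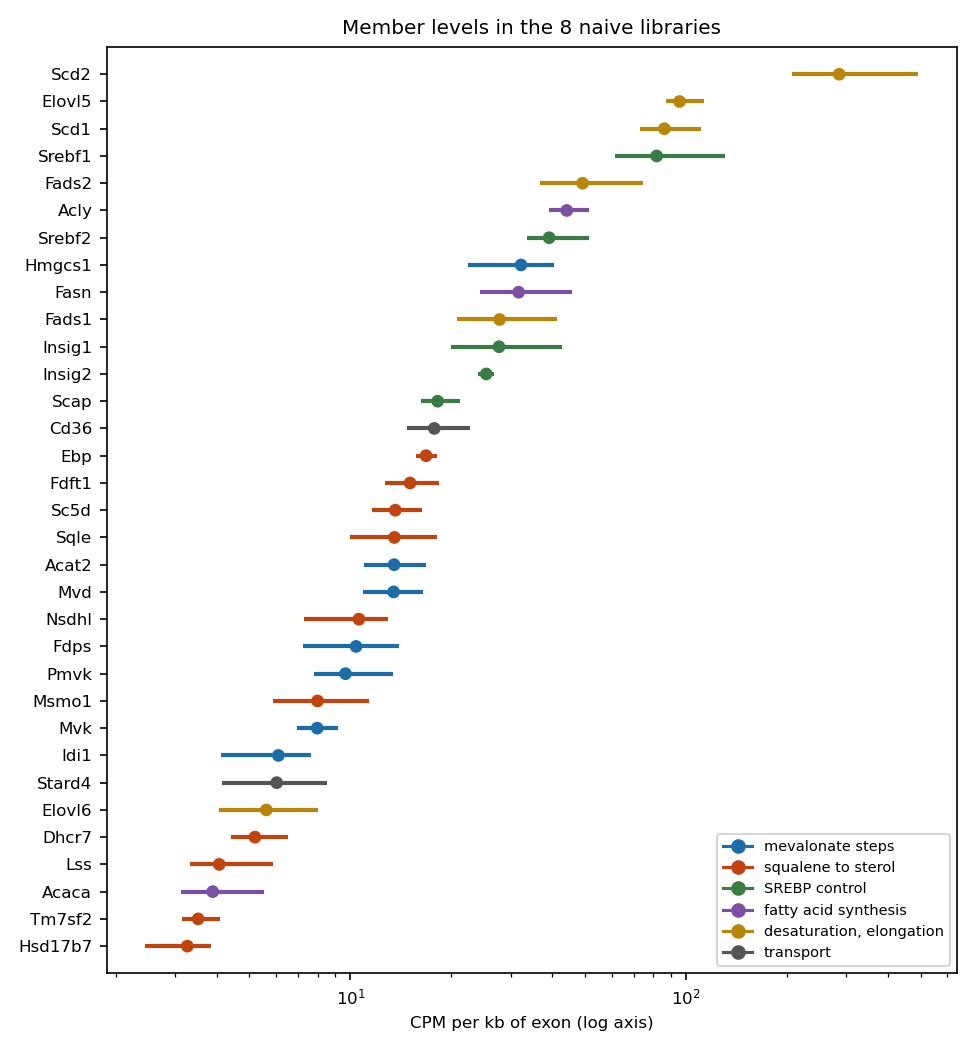
Level of each of the 33 genes in the 8 naive libraries, in CPM per kb of exon on a log axis. Points are means, lines run from the lowest to the highest library, and colour gives the role. Scd2 (286 CPM per kb) stands above all others and Hsd17b7 (3.27) is the lowest.

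Across all 16 libraries the members varied to different degrees. The highest library was 1.23 times the lowest for Insig2, 1.28 times for the sterol isomerase Ebp and 1.41 times for Sc5d. These were the 3 steadiest genes. Many others varied about as much as Acaca (1.94 times) or more, such as Scd2 at 2.46 and Srebf1 at 2.71. Cd36 stood apart at 26.5 times, followed by Hsd17b7 at 3.63 and Elovl5 at 3.52. The map of levels by library shows these 3 genes departing most in the F WT HDM libraries, and most of the other genes departing in replicate 1 of 3 male groups.

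**Figure D2:**
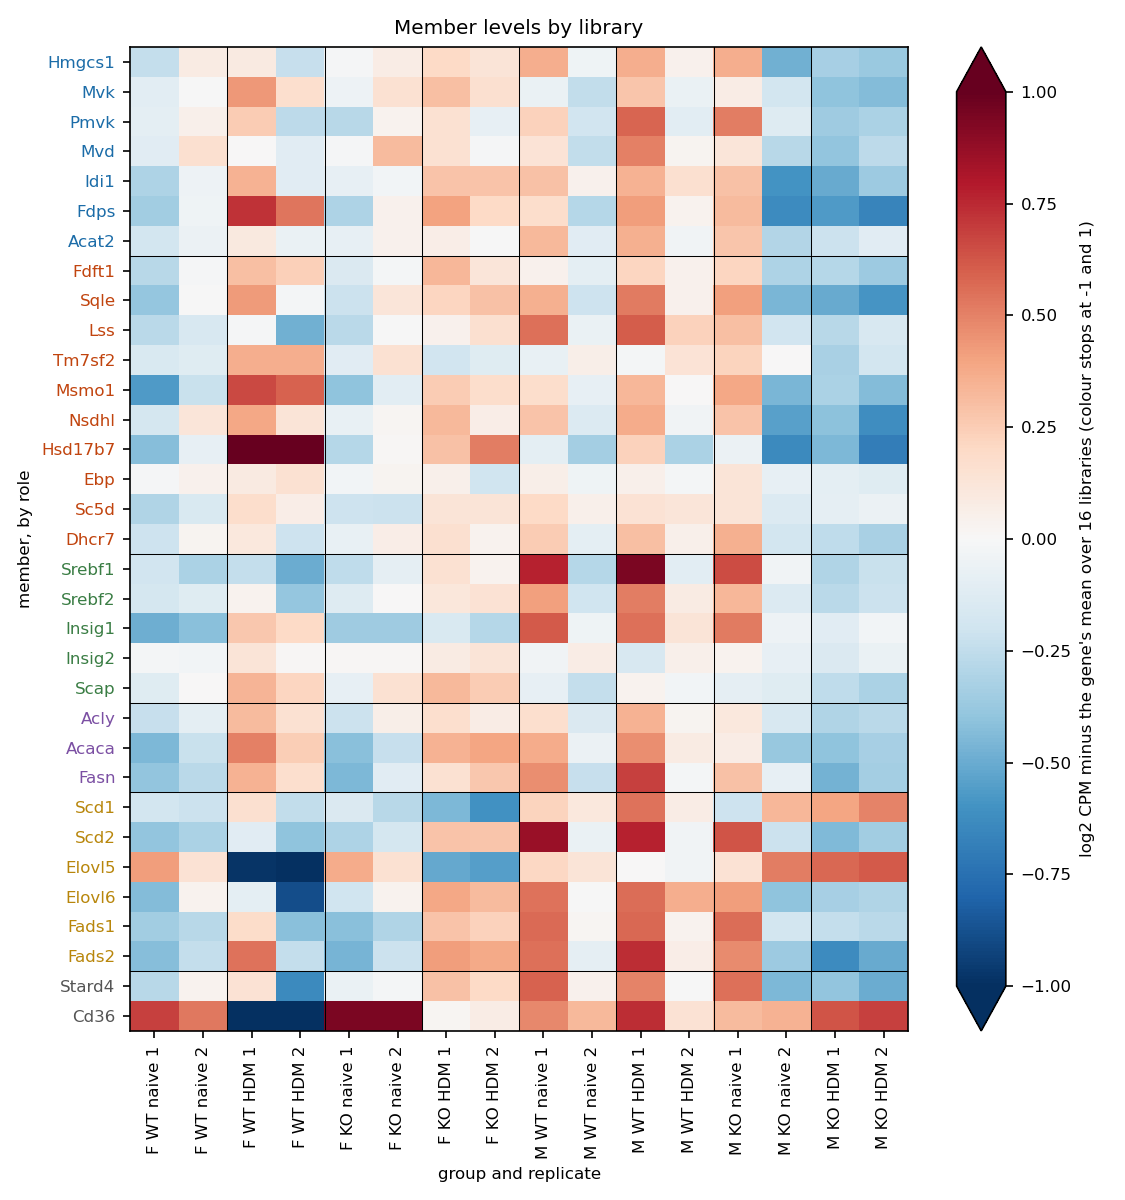
Level of the 33 genes (rows, by role) in the 16 libraries (columns, by group and replicate), as log2 CPM minus the mean of that gene over the 16 libraries. Red is above and blue below the gene's mean, and colours stop at -1 and 1. Hsd17b7 is red, and Cd36 and Elovl5 are blue, in both F WT HDM libraries. M WT naive, M WT HDM and M KO naive are redder in replicate 1 than in replicate 2.

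Some members were called with HDM in female WT cultures, a smaller share than of all tested genes. With all 16 libraries fitted, the share called higher was larger than that of all tested genes. This did not hold without F WT naive replicate 1 or without F WT HDM replicate 1. The members' median log2 fold change was 0.18 and 0.05 in these 2 fits. In F WT, 12 of the 33 members were called (adjusted p under 0.05, the quasi-likelihood test of edgeR, adjusted by Benjamini and Hochberg's method over all 15993 genes), 10 higher and 2 lower with HDM. The genes called higher were 5 enzymes from squalene synthesis to cholesterol (Hsd17b7, Msmo1, Tm7sf2, Fdft1, Sc5d), Fdps, Insig1, Scap, Acaca and Acly. Those called lower were Elovl5 and Cd36. The response was broad in these libraries, since 43.1% of all tested genes were called, 20.6% higher and 22.5% lower. The members' shares were 36.4% called, 30.3% higher and 6.06% lower. The median log2 fold change of the 33 members was 0.23, and that of all tested genes was -0.02. In 18 members the HDM and naive libraries did not overlap, beside 74.6% of all tested genes.

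The count in F WT depended on single libraries. Each fit below leaves 1 library in a group, and fewer of all tested genes were called in each too. That fall was not in the same proportion as the fall among the members. The count of members hung on which library was left out. It was 5 without F WT naive replicate 1, 5 without F WT HDM replicate 1, 10 without F WT naive replicate 2 and 9 without F WT HDM replicate 2. Hsd17b7, Msmo1, Tm7sf2, Elovl5 and Cd36 kept their call in each of these 4 fits. Insig1 and Acly lost it in all 4. The median of the members was 0.05 without F WT HDM replicate 1 and 0.39 without F WT HDM replicate 2.

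**Figure D3:**
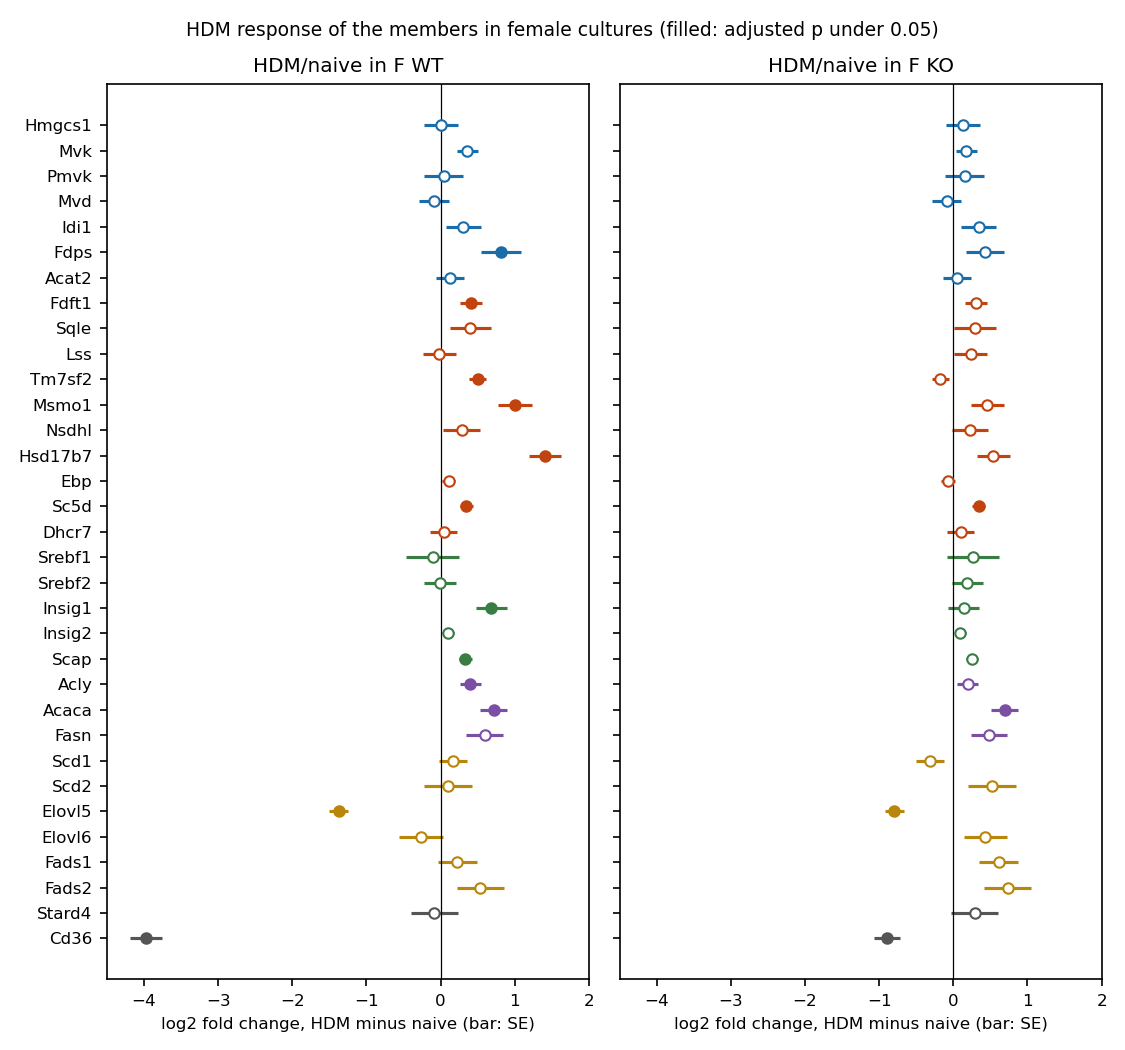
Log2 fold change between HDM and naive for the 33 genes in F WT (left) and F KO (right) cultures, with bars of 1 SE; filled points have an adjusted p under 0.05, and colours give the role as in the plot of naive levels. Cd36 (-3.97) and Elovl5 (-1.38) are the lowest in F WT, and Hsd17b7 (1.41) is the highest.

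The mevalonate steps hold Hmgcs1, which makes HMG-CoA, Acat2, which supplies its acetoacetyl-CoA, the kinases Mvk and Pmvk, the decarboxylase Mvd, the isomerase Idi1 and Fdps, which makes farnesyl diphosphate. Of these 7 genes, 1 was called in F WT and 0 in F KO, beside 43.1% and 10.4% of all tested genes. Fdps was at 37.0 and 45.6 CPM in F WT naive and at 77.5 and 68.1 in F WT HDM. It was at 38.1 and 48.4 in F KO naive and at 62.3 and 53.9 in F KO HDM. Both HDM libraries lay above both naive libraries in either genotype. The rise in F WT was 1.76-fold (log2 fold change 0.81 ± 0.26, SE, adjusted p = 0.0265, edgeR's quasi-likelihood test), and the value in F KO was 0.43 ± 0.26 (adjusted p = 0.34). The F WT call was lost without F WT naive replicate 1, F WT HDM replicate 1 or F WT HDM replicate 2 (adjusted p up to 0.16).

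In male cultures Fdps ranged from 29.8 to 62.8 CPM and followed the replicate more than HDM. It was at 53.2 and 38.7 CPM in M WT naive, 62.8 and 48.2 in M WT HDM, 58.6 and 30.4 in M KO naive, and 31.7 and 29.8 in M KO HDM. The other 6 genes of the mevalonate steps had log2 fold changes between -0.09 (Mvd) and 0.36 (Mvk) in F WT and none was called. Hmgcs1 had 122 and 153 CPM in F WT naive and 153 and 123 in F WT HDM, with a log2 fold change of 0.01 ± 0.23 (SE).

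From squalene synthesis to cholesterol, 5 of 10 genes were called higher in F WT, beside 20.6% of all tested genes. In F KO 1 was called higher, beside 4.63%. The median log2 fold changes of the 10 genes were 0.37 in F WT and 0.26 in F KO. Hsd17b7 (ENSMUSG00000026675, GRCm38 chr1:169949535-169969241, minus strand) encodes the ketoreductase that works with Msmo1 and Nsdhl to strip methyl groups from sterols. It had the largest rise of the 33 members, from 14.5 and 18.4 CPM in F WT naive to 43.7 and 43.8 in F WT HDM. In F KO it was at 16.0 and 19.6 in naive and at 23.9 and 27.8 in HDM libraries. The F WT HDM libraries were the 2 highest of all 16, and no other library exceeded 27.8 CPM. The rise in F WT was 2.65-fold (1.41 ± 0.22, SE, adjusted p = 0.00039, edgeR's quasi-likelihood test).

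In the F KO cultures the log2 fold change of Hsd17b7 was 0.54 ± 0.22 (SE, adjusted p = 0.14), and the HDM and naive libraries did not overlap. Male libraries lay between 12.1 and 22.8 CPM: 18.2 and 15.4 in M WT naive, 22.8 and 15.7 in M WT HDM, 18.7 and 12.5 in M KO naive, and 14.3 and 12.1 in M KO HDM. The male HDM and naive ranges overlapped in both genotypes. Among HDM libraries, Hsd17b7 was 2.28-fold higher in F than M in WT (adjusted p = 0.00121) and 1.96-fold higher in KO (adjusted p = 0.00808, edgeR's quasi-likelihood test).

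Msmo1 (chr8:64718139-64733792, minus strand), the methylsterol monooxygenase of the same steps, was at 36.2 and 45.9 CPM in F WT naive and at 84.4 and 80.7 in F WT HDM. The values were 40.5 and 49.8 in F KO naive and 63.8 and 60.3 in F KO HDM. HDM libraries were above naive libraries in both, by 2.01-fold in F WT (1.00 ± 0.23, SE, adjusted p = 0.00396) and by a log2 fold change of 0.46 ± 0.22 in F KO (adjusted p = 0.22, edgeR's quasi-likelihood test). In males Msmo1 was at 60.6 and 50.6 CPM in M WT naive, 67.2 and 53.5 in M WT HDM, 69.8 and 39.0 in M KO naive, and 43.0 and 39.7 in M KO HDM. The naive male WT libraries were thus above all 4 naive female libraries, and the F WT HDM libraries were above every male library.

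Because SREBPs act through promoters, the RefSeq windows of the members (250 bases before to 50 after the start, GRCm38.p6) were searched on both strands for a sterol regulatory element, TCACNNCAC, and for the CCAAT box that binds NF-Y, a partner of SREBPs. The looser form of the element was chosen after the windows had been read, so its share among the members describes these windows only. Of the 26 members with a window, 4 (15.4%) held TCACNNCAC, beside 4.37% of all 27025 genes with a window. They were Hmgcs1, Msmo1, Hsd17b7 and Dhcr7, and Hmgcs1 alone held the stricter TCACNCCAC, which 1.44% of all genes held. CCAAT was found in 21 of the 26 members (80.8%) and in 41.1% of all genes. A match is a description of letters and not evidence of binding.

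The 4 sequences with the element are shown to compare the genes that rose most, Hsd17b7 and Msmo1, with 2 that did not pass the test, Hmgcs1 and Dhcr7. Each is written 5′ to 3′ on the gene's strand, and capitals mark the sterol element and the CCAAT box, which reads ATTGG where it lies on the other strand. In Msmo1 the CCAAT box and the element share 1 base. The regions are chr1:169969256-169969455 (minus strand) for Hsd17b7, chr8:64733651-64733680 (minus) for Msmo1, chr13:119690101-119690300 (plus) for Hmgcs1 and chr7:143823259-143823288 (plus) for Dhcr7. The element begins 117, 92, 137 and 130 bases before the RefSeq start of the window in these genes. In Msmo1 and Dhcr7 the stretch lies inside the gene positions used here (GENCODE M21), which begin upstream of that RefSeq start. For these genes only 30 bases around the element are shown.
Hsd17b7: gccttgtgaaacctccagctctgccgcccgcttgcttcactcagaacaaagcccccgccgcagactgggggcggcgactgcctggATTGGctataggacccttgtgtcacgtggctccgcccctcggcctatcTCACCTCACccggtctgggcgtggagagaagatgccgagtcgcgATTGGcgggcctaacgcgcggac
Msmo1: cacggaCCAATCACTGCACggcgaaggcag
Hmgcs1: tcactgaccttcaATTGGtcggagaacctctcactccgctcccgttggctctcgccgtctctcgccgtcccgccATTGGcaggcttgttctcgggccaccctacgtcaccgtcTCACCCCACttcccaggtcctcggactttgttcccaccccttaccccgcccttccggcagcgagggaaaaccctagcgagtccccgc
Dhcr7: ggaaaagggcTCACTTCACcttatagctca

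Tm7sf2 (chr19:6062821-6068373, minus strand), a sterol reductase, was at 13.9 and 14.2 CPM in F WT naive and at 19.9 and 19.8 in F WT HDM. In F KO it was at 14.3 and 17.2 in naive and at 13.6 and 14.2 in HDM libraries, below both naive libraries. The 2 F WT HDM libraries were the highest of the 16. The rise in F WT was 1.41-fold (0.50 ± 0.12, SE, adjusted p = 0.0053), and the value in F KO was -0.18 ± 0.12 (adjusted p = 0.39, edgeR's quasi-likelihood test). Male libraries ranged from 12.4 to 18.0 CPM, at 14.7 and 16.1 in M WT naive, 15.2 and 17.0 in M WT HDM, 18.0 and 15.5 in M KO naive, and 12.4 and 13.6 in M KO HDM.

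Sc5d, which sets a double bond in the sterol ring, rose by a similar amount in both female genotypes. It was at 56.4 and 62.6 CPM in F WT naive, 78.5 and 72.9 in F WT HDM, 60.1 and 59.9 in F KO naive, and 76.0 and 76.2 in F KO HDM. The fold was 1.27 in F WT (0.35 ± 0.09, SE, adjusted p = 0.0075) and 1.27 in F KO (0.34 ± 0.09, adjusted p = 0.0281, edgeR's quasi-likelihood test). The F KO call was lost without any 1 of the 4 libraries (adjusted p 0.094 to 0.151), and the F WT call without F WT naive replicate 1 or F WT HDM replicate 1 (adjusted p up to 0.0841). In males Sc5d ranged from 63.3 to 79.6 CPM, at 79.6 and 72.1 in M WT naive, 76.8 and 75.5 in M WT HDM, 75.8 and 63.3 in M KO naive, and 65.4 and 66.7 in M KO HDM. All 4 naive female libraries lay below all 4 naive male libraries.

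Fdft1, squalene synthase, was at 55.0 and 65.9 CPM in F WT naive and at 81.9 and 78.6 in F WT HDM. Values were 60.3 and 65.8 in F KO naive and 83.9 and 72.3 in F KO HDM. The groups did not overlap in either genotype, yet the change of 1.33-fold in F WT was near the threshold (0.41 ± 0.15, SE, adjusted p = 0.0462, edgeR's quasi-likelihood test). It did not pass with upper-quartile scaling (adjusted p = 0.051), with library size only (0.0792), or without F WT naive replicate 1, F WT HDM replicate 1 or F WT HDM replicate 2 (up to 0.279). Male values were 68.5 and 62.2 in M WT naive, 77.5 and 68.6 in M WT HDM, 77.5 and 53.7 in M KO naive, and 54.6 and 51.6 in M KO HDM. The other 5 genes from squalene synthesis to cholesterol had log2 fold changes from -0.02 (Lss) to 0.40 (Sqle, the squalene epoxidase) in F WT.

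Of the 5 control genes, 2 were called in F WT and 0 in F KO, beside 43.1% and 10.4% of all tested genes. Srebf1 and Srebf2 themselves were not called in any of the 15 comparisons. Srebf2 was at 246 and 255 CPM in F WT naive and at 285 and 213 in F WT HDM, with a log2 fold change of -0.01 ± 0.21 (SE), and Srebf1 had -0.11 ± 0.35. Insig1, which retains SCAP in the endoplasmic reticulum and is itself a classical SREBP target, was at 61.9 and 64.8 CPM in F WT naive and at 104 and 99.3 in F WT HDM. F KO values were 67.7 and 67.5 in naive and 78.0 and 71.0 in HDM libraries. Male values were 132 and 84.2 in M WT naive, 127 and 94.8 in M WT HDM, 124 and 83.7 in M KO naive, and 79.9 and 85.0 in M KO HDM.

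The 4 naive female libraries were the lowest of all for Insig1. It rose 1.61-fold in F WT (0.69 ± 0.21, SE, adjusted p = 0.021, edgeR's quasi-likelihood test) but missed the threshold when any 1 of the 4 libraries was left out (adjusted p 0.0632 to 0.103). Scap was at 131 and 142 CPM in F WT naive, 179 and 165 in F WT HDM, 134 and 158 in F KO naive, and 178 and 169 in F KO HDM. Both genotypes showed HDM libraries above naive libraries. Its rise was 1.26-fold in F WT (0.33 ± 0.09, SE, adjusted p = 0.00946, edgeR's quasi-likelihood test), lost without F WT naive replicate 1 or F WT HDM replicate 1 (adjusted p up to 0.0946). In F KO the log2 fold change was 0.25 ± 0.09 (adjusted p = 0.092). Male Scap values were 134 and 121 in M WT naive, 146 and 139 in M WT HDM, 133 and 130.2 in M KO naive, and 119 and 114 in M KO HDM.

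Fatty acid synthesis runs from Acly, which makes cytosolic acetyl-CoA from citrate, through Acaca, which carboxylates it to malonyl-CoA, to Fasn, the synthase. Acaca (chr11:84129672-84401651, plus strand) was at 53.5 and 62.5 CPM in F WT naive and 104 and 86.7 in F WT HDM, and at 54.8 and 62.3 in F KO naive and 93.1 and 96.0 in F KO HDM. All 4 female HDM libraries were above all 4 female naive libraries. It rose 1.64-fold in F WT (0.71 ± 0.18, SE, adjusted p = 0.00803) and 1.62-fold in F KO (0.69 ± 0.18, adjusted p = 0.0323, edgeR's quasi-likelihood test). The F KO call did not hold without any 1 of the 4 libraries (adjusted p 0.0867 to 0.221), and the F WT call not without F WT naive replicate 1 or F WT HDM replicate 1 (up to 0.0729). Male values were 94.6 and 70.0 in M WT naive, 101 and 77.2 in M WT HDM, 76.9 and 56.2 in M KO naive, and 55.2 and 58.2 in M KO HDM.

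Acly was at 206 and 226 CPM in F WT naive, 302 and 270.1 in F WT HDM, 209 and 253 in F KO naive, and 272 and 255 in F KO HDM. HDM libraries were above naive libraries in both genotypes, by 255 against 253 CPM at the nearest in F KO. Its 1.32-fold rise in F WT (0.40 ± 0.14, SE, adjusted p = 0.0379, edgeR's quasi-likelihood test) was lost in each fit without 1 of the 4 libraries (adjusted p 0.0609 to 0.198) and with library size only (0.0587). Male values were 272 and 219.8 in M WT naive, 308 and 248 in M WT HDM, 261 and 217 in M KO naive, and 197 and 201 in M KO HDM. Fasn, at 277 and 301 CPM in F WT naive and 463 and 408 in F WT HDM, had a log2 fold change of 0.59 ± 0.24 (SE) that did not pass the test (adjusted p = 0.07).

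Among the 6 desaturases and elongases, Elovl5 (ENSMUSG00000032349, chr9:77917364-77984519, plus strand) was the single gene called in F WT, beside 43.1% of all tested genes, and in F KO, beside 10.4%. It was lower with HDM in both. It was at 375 and 309.7 CPM in F WT naive and at 142 and 122 in F WT HDM. In F KO it was at 361 and 311 in naive and at 197 and 191 in HDM libraries. The 4 female HDM libraries were the 4 lowest of the 16. Male libraries lay between 273 and 428 CPM, at 324 and 307 in M WT naive, 281 and 273 in M WT HDM, 309 and 399 in M KO naive, and 418 and 428 in M KO HDM.

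Elovl5 fell 2.6-fold in F WT (-1.38 ± 0.13, SE, adjusted p = 1.34e-05) and 1.73-fold in F KO (-0.79 ± 0.13, adjusted p = 0.00359, edgeR's quasi-likelihood test). Both calls held in every fit that left out 1 of the compared libraries. The neighbouring enzymes moved otherwise. Fads2, the desaturase that starts the polyunsaturated series, had a log2 fold change of 0.53 ± 0.32 in F WT and 0.73 ± 0.32 in F KO, and Fads1, its partner, 0.23 ± 0.26 and 0.61 ± 0.26 (SE). Neither passed the test. Scd1, Scd2 and Elovl6, which elongates saturated fatty acids, lay between -0.26 and 0.17 in F WT and were not called.

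Cd36 (ENSMUSG00000002944, chr5:17781690-17888801, minus strand), a membrane receptor that takes up long-chain fatty acids and oxidized lipoproteins, changed most. It was at 67.9 and 60.9 CPM in F WT naive and at 5.07 and 3.08 in F WT HDM. F KO libraries were at 81.5 and 81.4 in naive and at 42.9 and 44.5 in HDM. The F WT HDM libraries were the 2 lowest of all and the F KO naive libraries the 2 highest. Male values lay between 46.8 and 70.5 CPM, at 59.1 and 53.1 in M WT naive, 70.5 and 46.8 in M WT HDM, 52.8 and 54.0 in M KO naive, and 65.3 and 68.1 in M KO HDM.

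The fall of Cd36 was 15.6-fold in F WT (-3.97 ± 0.22, SE, adjusted p = 2.74e-07) and 1.86-fold in F KO (-0.90 ± 0.18, adjusted p = 0.00855, edgeR's quasi-likelihood test). The F WT call held in every fit without 1 of the compared libraries, and the F KO call in 1 of 4, being lost without F KO naive replicate 1, F KO HDM replicate 1 or F KO HDM replicate 2 (adjusted p up to 0.0759). CD36 is also made by macrophages, endothelium and fat cells. The 8 immune markers summed to 108 to 114 CPM in F WT HDM against 241 to 291 in F WT naive. Of 5 tested markers 3 were called lower, beside 22.5% of all tested genes, and Lyz2 was the most abundant. The 5 endothelial and 6 adipocyte markers reached at most 2.29 and 0.826 CPM in sum in any library, with Emcn at 0 throughout. Secretory and basal markers fell in the same libraries, as given above, and the part of any of these in the change of Cd36 was not tested. Stard4, which carries cholesterol between membranes, was at 26.1 and 32.4 CPM in F WT naive and 34.9 and 20.3 in F WT HDM, with overlapping groups.

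**Figure D4:**
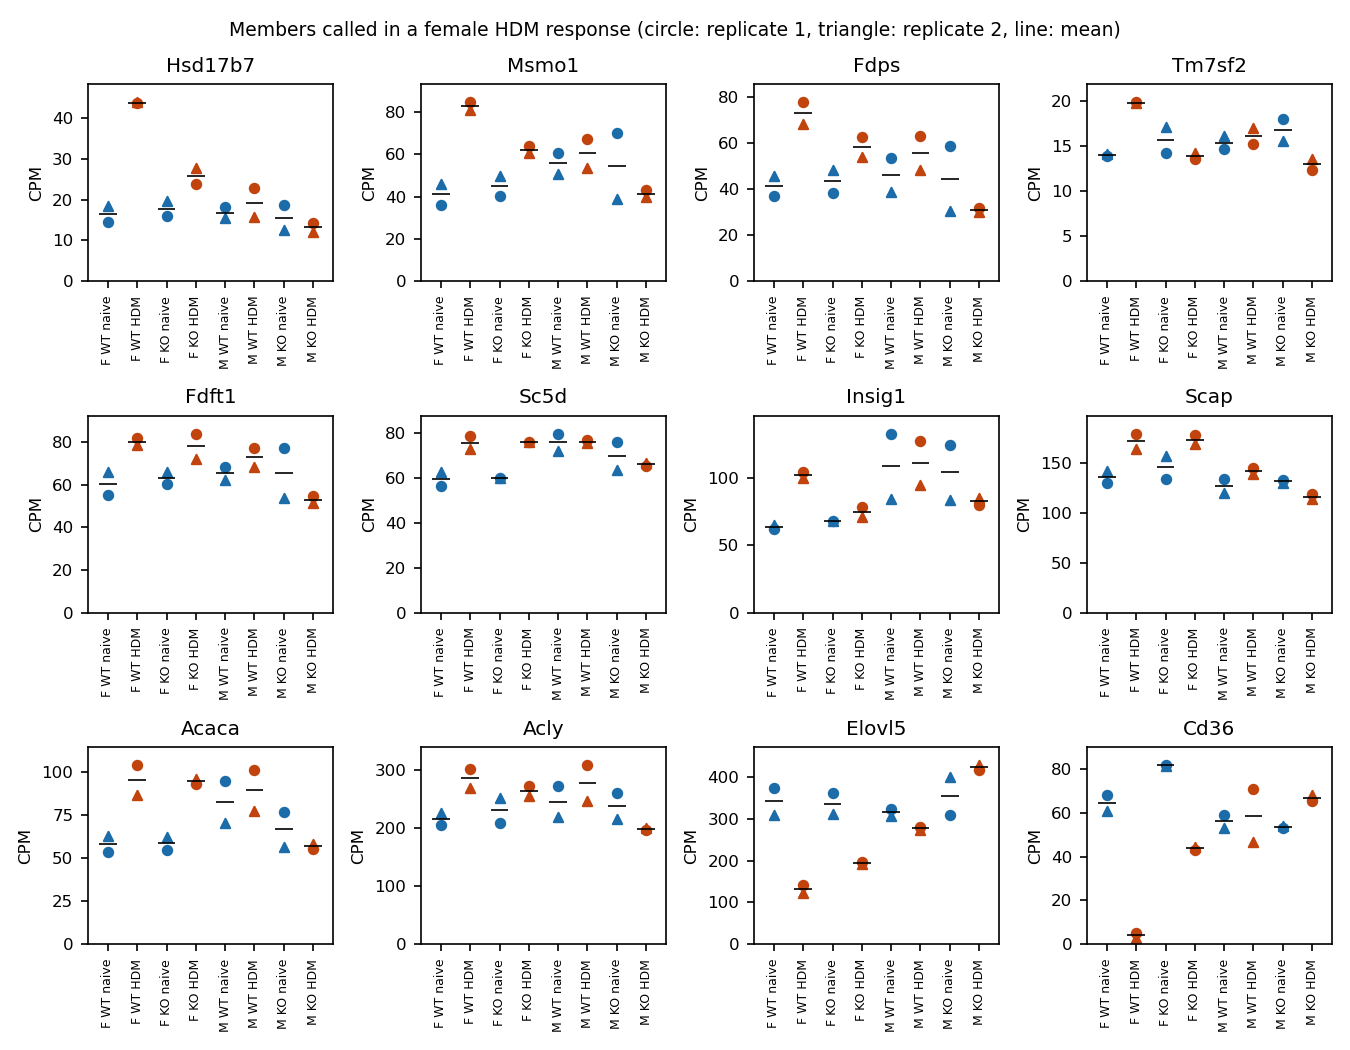
Level in CPM of the 12 genes called in a female HDM response, in the 8 groups (blue naive, orange HDM), with circles for replicate 1, triangles for replicate 2 and a line at the mean of 2. Hsd17b7 reached 43.7 and 43.8 CPM and Cd36 fell to 5.07 and 3.08 in F WT HDM, with F KO HDM in between, while male groups often differed more by replicate than by HDM.

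In F KO, 4 of the 33 members were called with HDM, Acaca and Sc5d higher and Elovl5 and Cd36 lower. That is 12.1% of the members, beside 10.4% of all tested genes (4.63% higher and 5.77% lower). Their median log2 fold change was 0.23, and that of all tested genes was -0.005. In 28 members the HDM and naive libraries did not overlap, beside 60.4% of all tested genes. Lman1 was at 12.8 CPM in both F KO naive libraries and at 66.6 and 78.0 in F KO HDM. HDM and this difference in Lman1 cannot be told apart in F KO. Secretory markers, 4 of 7 called lower, summed to 7228 to 7876 CPM in F KO HDM against 13197 to 15962 in F KO naive, and their part was not tested. The count was 2 without F KO naive replicate 2 and 1 without F KO naive replicate 1, F KO HDM replicate 1 or F KO HDM replicate 2. Each of these fits left 1 library in a group, and fewer of all tested genes were called too. The member count was 14 when only the compared libraries were fitted (2804 of 14969 genes called) and 14 with no low-count filter (2717 of 29397 genes).

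Male cultures gave no member past the test for HDM with 2 libraries a group. None of the 33 members was called by edgeR's quasi-likelihood test in M WT or M KO, where the share of all tested genes was 0% in each. At an unadjusted p under 0.05 there were 0 members in M WT and 3 in M KO, and DESeq2 called 0 members in both. With no low-count filter edgeR called 16 members in M KO, and 705 of all 29397 genes then tested. Over all genes the counts at an unadjusted p under 0.05 were 665 and 857, and DESeq2 called 2 and 1. The median log2 fold change of the members was 0.12 in M WT, with 29 of 33 above 0, and -0.35 in M KO, with 30 of 33 below 0. All tested genes had medians of -0.001 and -0.018.

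The male medians rested on differences between replicates. In M WT naive, M WT HDM and M KO naive, 31, 31 and 30 of the 33 members were higher in replicate 1 than in replicate 2, with median log2 ratios of 0.40, 0.39 and 0.54. Of all tested genes, 50.7%, 49.1% and 51.1% were higher in replicate 1 in these groups. In M KO HDM the count was 13 of 33 and the median -0.03. Srebf1 was at 737 and 355 CPM in M WT naive, 830.4 and 402 in M WT HDM, 680.3 and 421 in M KO naive, and 352 and 369.9 in M KO HDM. Scd2 went the same way, at 2692 and 1419.9, 2523 and 1446, 2295 and 1277, and 1095 and 1166 CPM.

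Summed over the 17 genes from mevalonate to cholesterol, the level was 889 and 703 CPM in M WT naive, 956 and 773 in M WT HDM, 916 and 591 in M KO naive, and 601 and 591 in M KO HDM. The M KO HDM libraries were therefore close to replicate 2 of M KO naive. Without M KO naive replicate 1 the median log2 fold change in M KO was -0.02, and without replicate 2 it was -0.58. In M WT it was -0.06 without M WT naive replicate 2 or M WT HDM replicate 1. Fibroblast markers moved with the replicates too, at 4.37, 3.18 and 5.38 CPM in sum in replicate 1 of M WT naive, M WT HDM and M KO naive and 169, 44.1 and 98.7 in replicate 2. Lman1 also differed between the M KO naive libraries, as given above. The part of these in the replicate difference was not tested. Female groups differed less than M WT naive, M WT HDM and M KO naive. Their medians were -0.13 in F WT naive, 0.26 in F WT HDM, -0.14 in F KO naive and 0.07 in F KO HDM. Most members still moved together in them. In this order, 5, 31, 6 and 23 of the 33 members were higher in replicate 1. Of all tested genes, 48.8%, 50.2%, 49.7% and 49.9% were. The F WT naive and F WT HDM libraries thus went opposite ways.

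**Figure D5:**
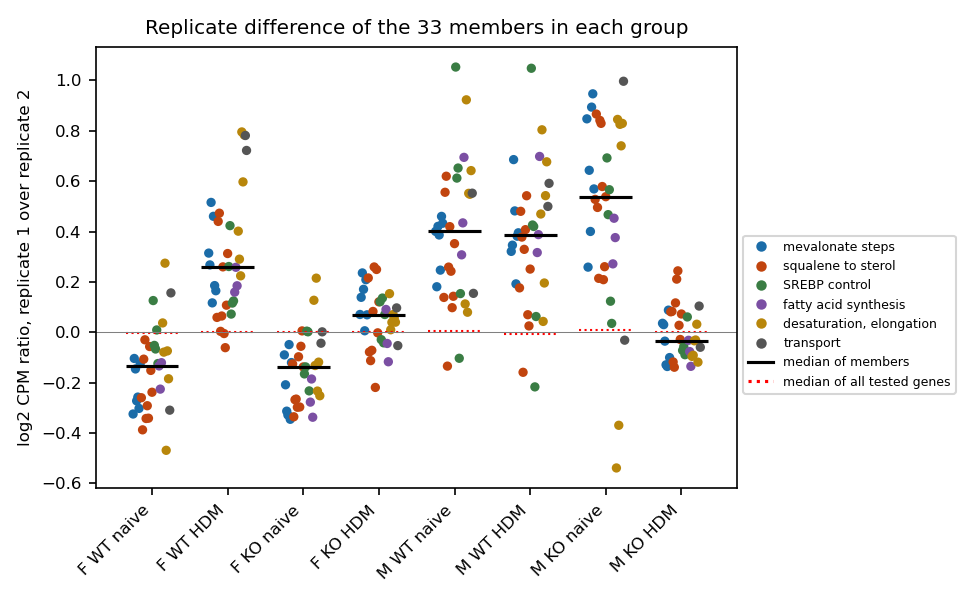
Log2 ratio of CPM between replicate 1 and replicate 2 for the 33 genes (points, coloured by role) in each group, with the median of the members (black line) and of all tested genes (red dotted line). M WT naive, M WT HDM and M KO naive have member medians of 0.40, 0.39 and 0.54, and the medians of all genes are near 0 in every group.

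Whether sexes differ was asked in each genotype and treatment. In WT HDM cultures 6 of 33 members were called between F and M, 2 higher in F (Hsd17b7 and Scap) and 4 lower (Lss, Elovl6, Elovl5 and Cd36), beside 20.3% of all tested genes higher and 21.3% lower. Cd36 was 14.3-fold lower (-3.83 ± 0.22, SE, adjusted p = 3.49e-07), and Elovl5 was 2.1-fold lower (-1.07 ± 0.13, adjusted p = 7.55e-05, edgeR's quasi-likelihood test). Lss, at 66.1 and 50.9 CPM in M WT HDM and 43.1 and 31.1 in F WT HDM, was 1.58-fold lower (adjusted p = 0.036). The count fell to 3 without M WT HDM replicate 1, the library with the higher levels of most members, and was 4 to 7 without another library. Fewer of all tested genes were called in each of these fits too. The member count was 3 with only the compared libraries (3916 of 15007 genes called) and 16 with no low-count filter (6753 of 29397).

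In KO HDM cultures 11 members were called between F and M. Those higher in F were Mvk, Idi1, Fdps, Fdft1, Hsd17b7, Scap, Acaca and Fads2, 8 genes, beside 12.4% of all tested genes. Lower in F were Scd1, Elovl5 and Cd36, 3 genes, beside 12.9%. The median log2 difference of the members was 0.51, and that of all tested genes 0.003. In 31 members the libraries did not overlap, beside 69.7% of all tested genes. Fads2, at 224 and 218 CPM in F KO HDM and 108 and 118 in M KO HDM, was 1.95-fold higher (0.96 ± 0.32, SE, adjusted p = 0.0461), and Scd1, at 315 and 283 against 567 and 606, was 1.96-fold lower (adjusted p = 0.00348, edgeR's quasi-likelihood test). Without M KO HDM replicate 1, M KO HDM replicate 2, F KO HDM replicate 1 or F KO HDM replicate 2 the count was 5, 3, 4 or 5. Scap, Scd1 and Elovl5 kept their call in all 4 of these fits, and Fads2, Fdps, Idi1, Acaca and Cd36 lost it in all 4. Fewer of all tested genes were called in these 4 fits too. With only the compared libraries the member count was 29 (5820 of 14686 genes called), and with no low-count filter it was 26 (4536 of 29397).

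Naive cultures gave no call between F and M for the members by edgeR's quasi-likelihood test, in WT (0.1% of all tested genes called) or in KO (0.188%). At an unadjusted p under 0.05 there were 5 members in WT and 4 in KO, and DESeq2 called 2 and 0. Over all genes 1968 and 1585 had such a p, and DESeq2 called 209 and 218. With no low-count filter edgeR called 13 and 7 members, and 644 and 859 of 29397 genes. In WT the median log2 difference was -0.24, with 27 of 33 members lower in F, and without M WT naive replicate 1 it was -0.03. In KO it was -0.09, and 0.09 without M KO naive replicate 1.

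Between the genotypes, 4 members were called in F HDM cultures, Cd36 and Elovl5 higher in KO, beside 14.9% of all tested genes higher, and Hsd17b7 and Tm7sf2 lower, beside 14.3% lower. Cd36 was 10.6-fold higher in F KO HDM than in F WT HDM (3.41 ± 0.22, SE, adjusted p = 3.54e-06) and Elovl5 1.47-fold higher (0.56 ± 0.13, adjusted p = 0.00867, edgeR's quasi-likelihood test). Hsd17b7 was 1.69-fold lower (-0.76 ± 0.22, adjusted p = 0.0224) and Tm7sf2 1.43-fold lower (-0.51 ± 0.12, adjusted p = 0.00811). The call of Hsd17b7 was lost in each of the 4 fits without 1 compared library, and that of Cd36 held in all 4. Elovl5 and Tm7sf2 lost theirs without F WT HDM replicate 2, where the count was 1, and the count was 3 or 4 without another library. Fewer of all tested genes were called in these 4 fits too. The member count was 8 with only the compared libraries (3627 of 14616 genes called) and 15 with no low-count filter (5149 of 29397).

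In M HDM cultures no member was called between the genotypes by edgeR's quasi-likelihood test, as for all tested genes (0%), although 26 members had an unadjusted p under 0.05, DESeq2 called 8, and edgeR with no low-count filter called 26 (1896 of 29397 genes). Over all genes 2897 had an unadjusted p under 0.05 and DESeq2 called 538. The median log2 difference of the members was -0.55, with 30 of 33 lower in KO. The libraries of the groups did not overlap for 30 members, 29 lower in KO, beside 53.8% of all tested genes. Without M WT HDM replicate 1 the median was -0.35. In naive cultures no member was called between genotypes in F or in M (0% of all tested genes in each), with 0 members at an unadjusted p under 0.05 and 0 called by DESeq2 in both. Over all genes 203 and 867 had an unadjusted p under 0.05, and DESeq2 called 1 in each.

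The HDM responses themselves were then compared. These comparisons share libraries with those above, so they are no separate evidence. In WT the response of 3 members differed between F and M. Hsd17b7 rose more in F, by a log2 difference of 1.21 ± 0.31 (SE, adjusted p = 0.0149), beside 11.3% of all tested genes with a higher response. Elovl5 (-1.19 ± 0.18, adjusted p = 0.000987) and Cd36 (-4.03 ± 0.28, adjusted p = 4.7e-06, edgeR's quasi-likelihood test) fell more in F, beside 12.8% of all genes. Without F WT naive replicate 1 the Hsd17b7 difference was not called (adjusted p = 0.0667), and the 2 others held without any 1 of the 8 libraries.

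In KO the response of 0 members was called higher in F than in M, beside 1.79% of all tested genes, and that of 2 was called lower, beside 1.77%. Elovl5 differed by -1.05 ± 0.18 (SE, adjusted p = 0.0137) and Cd36 by -1.22 ± 0.25 (adjusted p = 0.0234, edgeR's quasi-likelihood test). In either direction 17 members had an unadjusted p under 0.05, as had 2972 of all tested genes, and DESeq2 called 7 members and 1192 genes. With no low-count filter edgeR called 26 members and 1977 of 29397 genes. The 33 members had a median difference of 0.55, with 30 above 0, against 0.008 for all tested genes. Lman1 differed between the F KO naive and F KO HDM libraries, as given above, and cannot be told apart from HDM here. The member counts hung on single libraries. So did the count of all called genes, which rose without M KO naive replicate 2 and fell without any other compared library. Without M KO naive replicate 2, 11 members were called, and without M KO naive replicate 1, 1. Without M KO HDM replicate 1, M KO HDM replicate 2, F KO naive replicate 1 or F KO HDM replicate 2 none was called, and without F KO HDM replicate 1, 1.

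Between the genotypes in F, the HDM responses of 2 members differed. In F KO, Lman1 was also higher in HDM libraries (66.6 and 78.0 CPM) than in naive libraries (12.8 in both). This comparison cannot tell HDM and that difference apart. The response of Tm7sf2 was lower in KO by 0.67 on the log2 scale (-0.67 ± 0.17, SE, adjusted p = 0.0274), beside 5.08% of all tested genes. That of Cd36 was higher in KO, a smaller fall (3.07 ± 0.28, adjusted p = 0.000113, edgeR's quasi-likelihood test), beside 6.16%. Hsd17b7 had a difference of -0.87 ± 0.31 (adjusted p = 0.091) and Elovl5 of 0.58 ± 0.18 (adjusted p = 0.063), both above the threshold in this fit. DESeq2, and edgeR with no low-count filter, called both genes, and with only the compared libraries Hsd17b7 was called, so these calls depend on the setting. The Cd36 difference held without any 1 of the 8 libraries. The Tm7sf2 difference held without F WT HDM replicate 1 or F KO naive replicate 1 and was lost without F WT naive replicate 1, F WT naive replicate 2, F WT HDM replicate 2, F KO naive replicate 2, F KO HDM replicate 1 or F KO HDM replicate 2 (adjusted p up to 0.123).

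Further lists of genes around the pathway describe what surrounded the members in F WT and F KO. Of all tested genes, 20.6% were called higher and 22.5% lower in F WT, and 4.63% and 5.77% in F KO. The counts of each list are to be read beside these shares. In a list of other sterol synthesis genes, 3 of 11 tested were called higher and 3 lower with HDM in F WT, and 0 and 1 in F KO, with median log2 fold changes of 0.24 and 0.06. Acat1, the mitochondrial acetoacetyl-CoA thiolase, fell from a mean of 60.4 to 29.7 CPM in F WT (-1.02 ± 0.09, SE, adjusted p = 1.05e-05, edgeR's quasi-likelihood test). Por, which passes electrons to cytochromes P450 and to squalene epoxidase, fell from 2367 to 1209 CPM (adjusted p = 0.00196), and Nus1, a subunit of the enzyme that makes dolichol chains, rose from 86.4 to 112.8 CPM (adjusted p = 0.000433).

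In the list of SREBP processing and sterol-regulated degradation, 5 of 12 were called higher and 3 lower in F WT, beside 20.6% and 22.5% of all tested genes. In F KO the counts were 0 and 1, beside 4.63% and 5.77%. Mbtps1, the site-1 protease that cleaves SREBPs, rose from 164 to 253 CPM in F WT (0.62 ± 0.08, SE, adjusted p = 0.000131, edgeR's quasi-likelihood test). Erlin2, an endoplasmic reticulum protein that binds cholesterol, rose from 151 to 197 CPM (adjusted p = 0.000802), and Pgrmc1 fell from 449 to 255 CPM (adjusted p = 0.000189). In the list of other lipogenic genes, 5 of 26 tested were called higher and 7 lower in F WT. In F KO these counts were 1 and 4, beside the same shares of all tested genes. Acsl1, which activates long-chain fatty acids, fell from 121 to 19.9 CPM in F WT (-2.61 ± 0.11, SE, adjusted p = 6.66e-08, edgeR's quasi-likelihood test). Dgat2, which makes triglyceride, fell from 4.66 to 1.32 CPM (adjusted p = 5.32e-06), and Acss2, which makes acetyl-CoA from acetate, from 23.0 to 6.57 (adjusted p = 8.89e-06).

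For sterol export and storage, 4 of 14 genes were called higher and 1 lower in F WT, beside 20.6% and 22.5% of all tested genes. In F KO the counts were 1 and 1, beside 4.63% and 5.77%. Mylip, which targets lipoprotein receptors for degradation, fell 2.65-fold in F WT (-1.41 ± 0.11, SE, adjusted p = 2.4e-06, edgeR's quasi-likelihood test). Npc2, which moves cholesterol out of lysosomes, rose from 174 to 216 CPM (adjusted p = 0.0114), and Nr1h2, the sterol sensor LXR beta, from 108 to 128 (adjusted p = 0.02). In fatty acid oxidation, 3 of 16 tested genes were called higher and 6 lower in F WT. In F KO these counts were 2 and 2, beside the same shares of all tested genes. The beta-oxidation enzymes Acadm, Acaa2 and Echs1 fell, from 119.96 to 61.8 CPM (adjusted p = 3.18e-05), from 85.7 to 53.5 (adjusted p = 0.000118) and from 66.5 to 43.0 (adjusted p = 0.000128, edgeR's quasi-likelihood test).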

How the data were processed

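The authors deposited 1 table of unnormalized counts, genes by 16 libraries, per the labels from mRNA of MTEC cultures. Per the submitters' processing notes, tools were Trimmomatic 0.36, STAR 2.5.2b, featureCounts, Subread 1.5.2 and DESeq2 on GRCm38. Their annotation release, strand setting and treatment of reads shared by related genes such as Scd1 and Scd2 are not given in the sources used here, so overlapping or antisense genes cannot be told apart. Symbols, positions and exon lengths came from GENCODE M21 (GRCm38). Promoters came from RefSeq (GRCm38.p6), matched for 26 of 33 members.

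Counts were fitted with edgeR 4.0.16 (R 4.3.3): filterByExpr by group, TMM, 8 group means over 16 libraries, two-sided quasi-likelihood F-test, Benjamini-Hochberg over 15993 genes, called at an adjusted p under 0.05. SE is the log2 fold change over the root of F. DESeq2 1.42.0 was the alternative tool. Other alternatives were scaling, filter, libraries fitted, a replicate block and leaving out each library. The fit was tested on simulated counts.

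The members, the 5 surrounding lists and the 10 marker lists were chosen with earlier results of these data known. All 33 members could be named, with every library's value for those called in an HDM response or a difference between responses. Other members were given by groups or ranges, those shown in full having been chosen after their values were seen. From each surrounding list the 3 genes with the smallest p in F WT were named. Not every gene of the lists is named. Of the 185 listed symbols 183 matched.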

Additional observations from a re-analysis of the deposited data

Results flagged for a closer look

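Differences between groups in the HDM response, each tested by edgeR's quasi-likelihood test of the difference itself, drew attention to 4 genes. Between F and M in WT, the log2 difference in response was 1.21 for Hsd17b7, -1.19 for Elovl5 and -4.03 for Cd36. Between F and M in KO it was -1.05 for Elovl5 and -1.22 for Cd36. Between KO and WT in F it was -0.67 for Tm7sf2 and 3.07 for Cd36. With 2 libraries a group, no group was large enough for an outlier test.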

How the results depend on the processing

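Directions of the 23 named changes held under each alternative. Leaving out 1 compared library at a time kept 71 of 120 calls. The other alternatives kept all 23, except upper-quartile scaling (22) and library size only (21).

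Member counts moved as follows, and the cause was not tested. Without the low-count filter they were 14 for HDM against naive in F KO and 16 in M KO, 16 for F against M in WT HDM, 26 in KO HDM, 13 in WT naive and 7 in KO naive, 15 for KO against WT in F HDM and 26 in M HDM, and for responses 7 (F against M in WT), 26 (in KO) and 9 (KO against WT in F). With only the compared libraries they were 14 for HDM in F KO, 3 for F against M in WT HDM, 29 in KO HDM, 8 for KO against WT in F HDM, and for responses 5 (F against M in KO) and 4 (KO against WT in F). DESeq2 gave 8 for KO against WT in M HDM, 2 for F against M in WT naive, and for responses 5, 7 and 4.

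The replicate block gave 5, 7 and 4 for the 3 response differences and 6 for HDM in F KO, and changed no other count by over 1.5 times. It called Hsd17b7 and Elovl5 for the response of KO against WT in F. Nothing in the labels ties equal numbers together. Replicate differences correlated from 0.44 to 0.48 among M WT naive, M WT HDM and M KO naive and at 0.29 between F WT naive and F WT HDM, but as low as -0.30 between other groups, so the numbers were not taken as pairs. With crossed numbers, chosen after seeing the data, the block called 0 members (0 and 24 genes) for HDM in M KO and F against M in KO naive.

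Leaving out 1 library gave 5 to 10 members for HDM in F WT, 1 to 2 in F KO, 3 to 7 for F against M in WT HDM, 3 to 5 in KO HDM, 1 to 4 for KO against WT in F HDM, and for responses 2 to 4 (F against M in WT), 0 to 11 (in KO) and 1 to 3 (KO against WT in F). All other such counts were 0 to 0. For the comparisons named here, fewer of all tested genes were called in most of these fits too.

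Library size alone moved the median of all genes in F WT from -0.02 to -0.10, and the share of higher calls among all called genes from 51.1% to 61.8% for KO against WT in F HDM and from 54.8% to 67.0% for the response of KO against WT in F. With 2 libraries a group, the smallest member change called was 1.21-fold (Scap, F against M in WT HDM).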
